A study of Mus musculus with 4 samples.

Results

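The Reg lectin genes Reg1, Reg3a, Reg3b, Reg3g and Reg4 and the secreted phospholipase A2 gene Pla2g2a belong to the secreted antibacterial defence of the gut epithelium. They were chosen by name, and all 6 were found by symbol among the 38124 gene IDs of the deposited tables. RNA was sequenced from sorted intestinal cells of C57BL/6 mice, stem cells with high GFP and progenitors with low GFP, with 1 library each for high-fat diet (HFD) GFP-high, HFD GFP-low, control-diet GFP-high and control-diet GFP-low cells. Per the labels, all mice were males of 71 weeks and each library came from sorted cells of 2 to 5 pooled mice. The sources used here do not give the gene that drives GFP, the composition of the diets, or whether both fractions of a diet were sorted from the same animals.

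Reg proteins are small secreted C-type lectins. Reg3g kills Gram-positive bacteria after binding the peptidoglycan of their walls, and Reg3b also acts on some Gram-negative species. In mouse gut, transcription of both depends on microbial signals through MyD88 and on interleukin-22, whose epithelial receptor activates STAT3. Reg1 was first described in regenerating pancreatic islets, Reg3a is the mouse namesake of a human bactericidal lectin, and Reg4 is known from enteroendocrine cells and from deep crypt secretory cells of the colon. Pla2g2a encodes a phospholipase that breaks bacterial membranes and is made by Paneth cells. C57BL/6 mice carry a frameshift in it, the Mom1 variant that modifies intestinal tumour number.

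Chromosome 6 of GRCm38 carries a cluster of 6 Reg genes over 98.2 kb (GENCODE M21). In order they are Reg3b (chr6:78370657-78373466, plus strand), Reg3d, Reg3a (chr6:78380709-78383827, plus), Reg2, Reg1 (chr6:78422711-78428667, plus) and Reg3g (chr6:78466269-78468872, minus). Reg2 had 0 counts in every library and Reg3d had 1 or 2, so the cluster's counts came from Reg3b, Reg3g, Reg3a and Reg1. Reg4 lies apart on chromosome 3 (98222156 to 98236748, plus). Pla2g2a is on chromosome 4 (138831857 to 138835186, plus), where GENCODE calls it a polymorphic pseudogene and RefSeq a transcribed pseudogene. Its interval overlaps Pla2g5 on the opposite strand, with 0 exonic bases in common. Among the transcripts of these genes, the longest identical run was 35 bases, between Reg3b and Reg3g, followed by 24 bases between Reg3a and each of the other 2 Reg3 genes. Read length and whether counting used strand are not stated in the sources used here.

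The stretches upstream of Reg3b, Reg3g and Reg3a are shown because Reg3b and Reg3g fell together under HFD and Reg3a, which lies between them, was not called. Each runs from 170 to 25 bases before the RefSeq start (GRCm38.p6), 5′ to 3′ on the gene's own strand, and a match to the STAT motif TTCNNNGAA is in capitals. The Reg3b stretch lies within the longer GENCODE gene model, outside its exons.
Reg3b (chr6:78370715-78370860, plus): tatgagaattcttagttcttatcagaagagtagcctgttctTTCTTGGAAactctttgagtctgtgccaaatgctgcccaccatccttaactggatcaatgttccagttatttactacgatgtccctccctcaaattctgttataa
Reg3g (chr6:78468899-78469044, minus): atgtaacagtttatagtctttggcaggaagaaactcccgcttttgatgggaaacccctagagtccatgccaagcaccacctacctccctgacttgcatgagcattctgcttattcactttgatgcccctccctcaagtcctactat
Reg3a (chr6:78380539-78380684, plus): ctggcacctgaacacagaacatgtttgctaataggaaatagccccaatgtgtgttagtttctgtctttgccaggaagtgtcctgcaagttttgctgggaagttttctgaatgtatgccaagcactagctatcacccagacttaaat
In a global alignment with gaps counted, Reg3b and Reg3g had 63.3% identical columns, Reg3b and Reg3a 51.8%, and Reg3g and Reg3a 49.7%. The STAT motif reads the same on both strands. It was found in the Reg3b stretch, at 129 to 121 bases before the start, and not in the other 2 stretches. It was present in 3.98% of the 32851 promoter windows of the same length and position. Sites outside these stretches, or of another form, were not searched. A link between these sequences and the diet results was not tested.

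Libraries held 4677389 to 6207080 counts. Of 18918 genes detected in any library, the 10694 that reached 20 counts in 2 or more of them were tested, and all 6 genes described here were among these. Values below are counts scaled to 1000000 per library (CPM) after TMM scaling. Intervals of levels and of ratios between libraries or counts cover counting error only. Intervals given with an edgeR estimate come from its SE and so include the fitted spread among the libraries. Lgr5, which marks stem cells at the crypt base, stood at 242 CPM in both GFP-high libraries and at 12.5 (HFD) and 12.7 (control) in GFP-low, so the sort matched its labels. Mitochondrial ribosomal RNA took 1.18% of the counts in HFD GFP-high, against 2.54% to 2.82% in the other libraries. Mitochondrially encoded mRNA took 17.09% and 16.77% in HFD GFP-high and GFP-low, against 14.87% and 14.12% in control GFP-high and GFP-low. No group has a replicate, so diet cannot be told apart from the pool of mice behind each library, and "under HFD" below means in the HFD libraries relative to the control ones. Diet and fraction were therefore tested in a single additive edgeR model over the 4 libraries, with a threshold of 0.05 on the adjusted p. It leaves 1 residual degree of freedom, so a difference of the diet effect between the fractions counts as spread. P-values reflect only the spread among the 4 libraries, part of which can be technical. Should the GFP-high and GFP-low cells of a diet share a pool of mice, the diet p-values understate the error.

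Under HFD, Reg3b, Reg3g and Pla2g2a fell in the test over both fractions, and Reg1, Reg3a and Reg4 were not called. Thus 3 of the 6 were lower, and none higher, against 3.0% of all tested genes called lower and 2.26% called higher (5.26% in either direction). The 3 that fell were far below control in each fraction, by 4.75-fold to 35.3-fold. In bulk samples such as these, fewer cells of a type and less RNA per cell cannot be told apart.

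**Figure D1:**
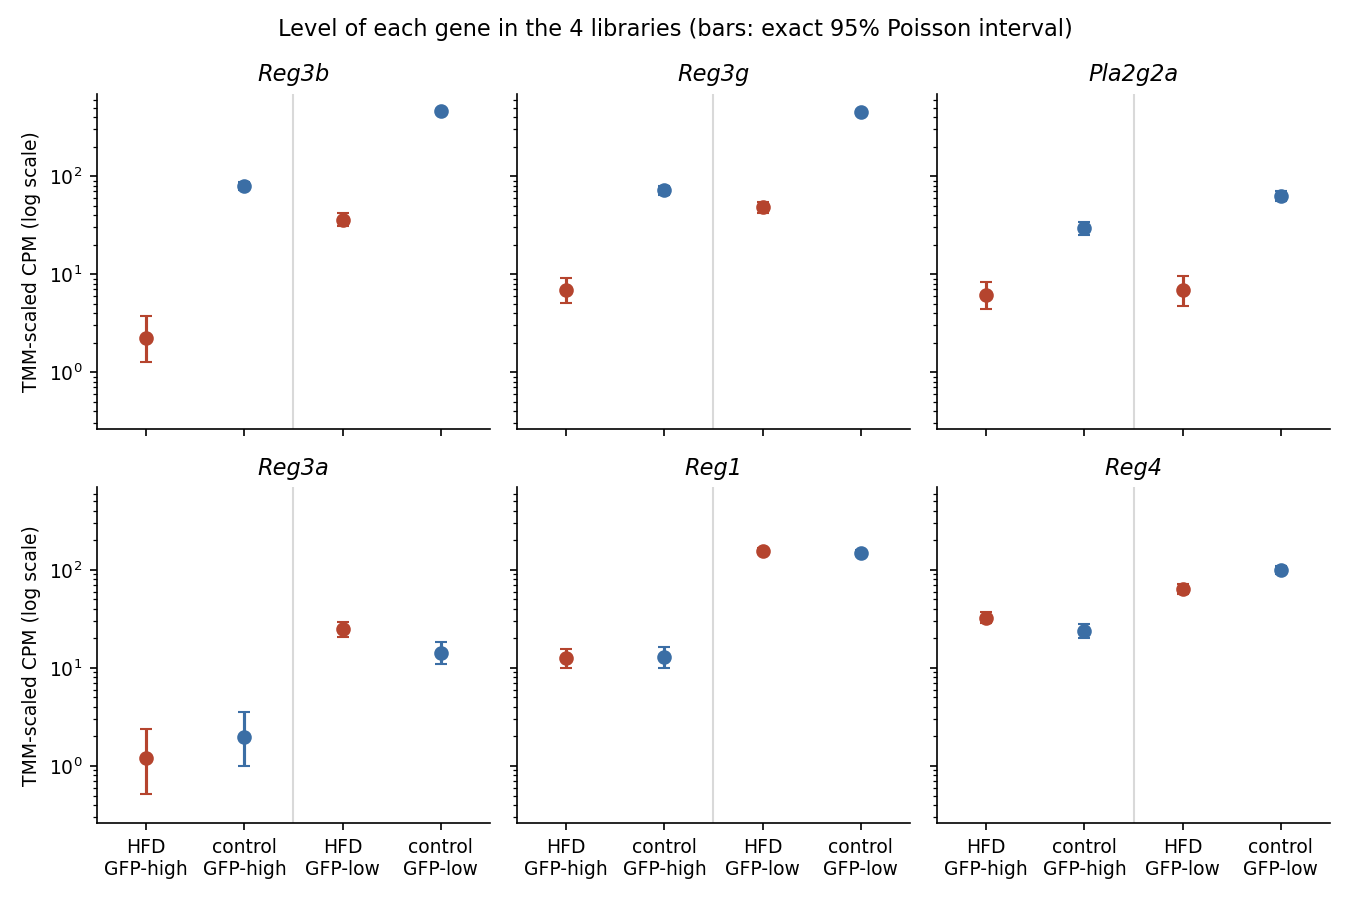
Level of each gene in the 4 libraries, in TMM-scaled CPM on a log axis, with HFD in red, control in blue and bars giving exact 95% Poisson intervals. Reg3b, Reg3g and Pla2g2a are lower in both HFD libraries than in both control libraries, while the Reg1 points differ between the fractions only.

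Reg3b was at 2.25 CPM (15 counts) in HFD GFP-high and 36.0 CPM (178 counts) in HFD GFP-low, against 79.3 CPM (437 counts) in control GFP-high and 466 CPM (2060 counts) in control GFP-low. Both HFD libraries were below both control libraries. It fell 16.2-fold over both fractions (log2 -4.01 ± 0.21 SE, 95% interval -4.47 to -3.56, edgeR adjusted p = 7.83e-07). Within a fraction, where there is 1 library each and no test, it was 35.3-fold lower in GFP-high (exact interval 21.1 to 63.5) and 12.9-fold lower in GFP-low (11.1 to 15.2). With 0.5 CPM added to each value, the log2 ratios were -4.86 and -3.68.

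Reg3g was at 6.90 CPM (46 counts) in HFD GFP-high and 47.9 CPM (237 counts) in HFD GFP-low, against 71.3 CPM (393 counts) in control GFP-high and 453 CPM (2005 counts) in control GFP-low. Again the HFD libraries were the lower 2 of the 4. It fell 9.72-fold over both fractions (log2 -3.28 ± 0.12 SE, interval -3.54 to -3.02, edgeR adjusted p = 9.21e-08). Its fall was close in size in the 2 fractions, at 10.3-fold in GFP-high (exact interval 7.61 to 14.4) and 9.47-fold in GFP-low (8.27 to 10.9).

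The lectin pair was near parity under the control diet and unequal under HFD. The ratio of Reg3b to Reg3g counts within a library, which no scaling can change, was 0.326 in HFD GFP-high (exact interval 0.169 to 0.595) and 0.751 in HFD GFP-low (0.615 to 0.916), against 1.11 in control GFP-high (0.968 to 1.28) and 1.03 in control GFP-low (0.966 to 1.09). The HFD intervals did not reach the control ones in either fraction. Reg1, the neighbour that was not called, was 5.60 times as abundant as Reg3b by counts in HFD GFP-high and 4.30 times in HFD GFP-low, against 0.162 times in control GFP-high and 0.320 times in control GFP-low.

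Pla2g2a was at 6.15 CPM (41 counts) in HFD GFP-high and 6.87 CPM (34 counts) in HFD GFP-low, against 29.2 CPM (161 counts) in control GFP-high and 62.4 CPM (276 counts) in control GFP-low. The 2 HFD libraries had overlapping intervals, and both lay below both controls. It fell 6.62-fold over both fractions (log2 -2.73 ± 0.22 SE, interval -3.21 to -2.25, edgeR adjusted p = 3.65e-05), with ratios of 4.75-fold in GFP-high (exact interval 3.36 to 6.87) and 9.08-fold in GFP-low (6.35 to 13.4). These counts are of transcript only, since the strain's allele is disrupted.

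Pla2g5, the secreted phospholipase A2 gene whose interval spans Pla2g2a on the other strand, also fell. It had 91 counts in HFD GFP-high and 39 in HFD GFP-low, against 450 in control GFP-high and 169 in control GFP-low. That was a fall of 5.54-fold (log2 -2.47 ± 0.16 SE, edgeR adjusted p = 4.73e-06). Its order between the fractions was the reverse of that of Pla2g2a: it rose in GFP-high over GFP-low (log2 1.01 ± 0.15 SE, edgeR adjusted p = 0.000319). Counts of Pla2g2a per count of Pla2g5 were 0.451 in HFD GFP-high and 0.872 in HFD GFP-low, against 0.358 in control GFP-high and 1.63 in control GFP-low. A transfer of reads between the 2 genes was not tested.

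The fit without fraction as a term treats a GFP-high and a GFP-low library as replicates of a diet. It called none of Reg3b, Reg3g and Pla2g2a (edgeR adjusted p = 0.999997 each), nor any other gene, with 154 genes at an unadjusted p under 0.05. A fit with robust shrinkage of the spread, chosen after seeing the data, kept all 3 calls and raised the adjusted p of Reg3b to 0.00224.

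**Figure D2:**
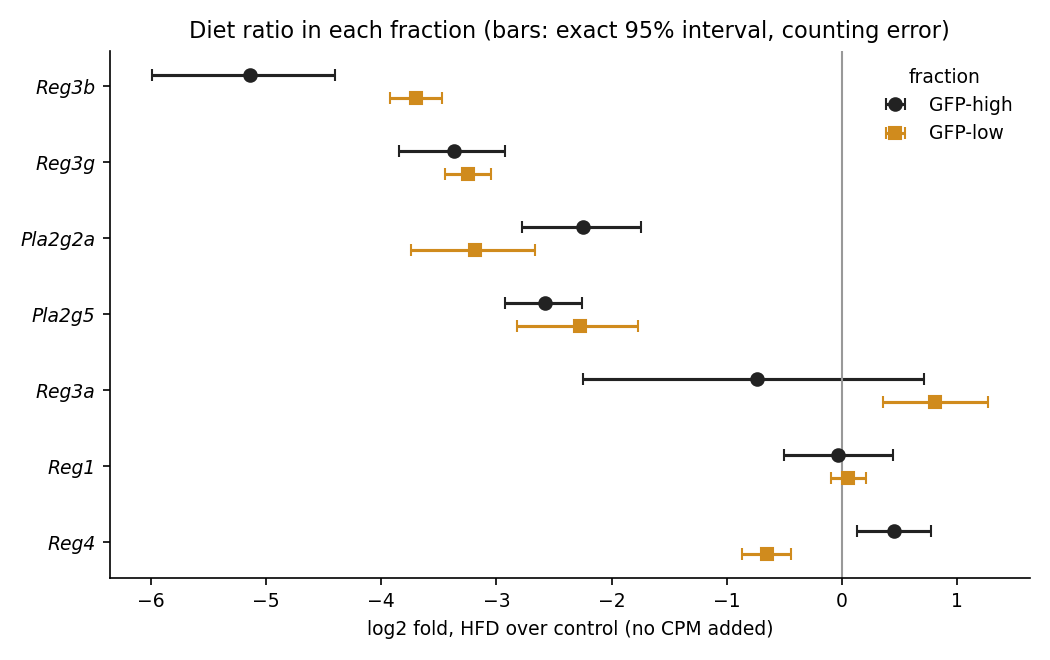
Diet ratio of each gene within GFP-high (circles) and GFP-low (squares), as log2 fold of HFD over control with exact 95% counting intervals and 1 library per point's numerator and denominator. Reg3b, Reg3g, Pla2g2a and Pla2g5 lie well below 0 in both fractions, and the Reg4 points lie on opposite sides of 0.

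Reg1 was at 12.6 CPM in HFD GFP-high and 155 CPM in HFD GFP-low, against 12.9 CPM in control GFP-high and 149 CPM in control GFP-low. The diets thus lay side by side within each fraction. The diet estimate was log2 0.03 ± 0.12 SE with an interval of -0.24 to 0.30 (edgeR adjusted p = 0.928). That range holds only under the additive model and does not separate diet from the pool of mice.

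Reg3a was at 1.20 CPM (8 counts) in HFD GFP-high and 24.8 CPM (123 counts) in HFD GFP-low, against 1.997 CPM (11 counts) in control GFP-high and 14.2 CPM (63 counts) in control GFP-low. In GFP-low it was 1.75-fold higher under HFD (exact interval 1.28 to 2.40), and in GFP-high the interval of the ratio ran from 0.210 to 1.64. Over both fractions it was not called (log2 0.52 ± 0.34 SE, interval -0.22 to 1.26, edgeR adjusted p = 0.435). The shallow counts in GFP-high limit what can be seen there.

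Reg4 was at 32.7 CPM (218 counts) in HFD GFP-high and 64.2 CPM (318 counts) in HFD GFP-low, against 24.0 CPM (132 counts) in control GFP-high and 101 CPM (447 counts) in control GFP-low. HFD was higher in GFP-high, 1.36-fold (exact interval 1.09 to 1.71), and lower in GFP-low, at 0.636 of control (0.549 to 0.736). The test over both fractions gave log2 -0.19 ± 0.20 SE (interval -0.64 to 0.26, edgeR adjusted p = 0.656). The summed enteroendocrine markers ran the same way, at 102 and 538 CPM in HFD GFP-high and GFP-low against 74.4 and 1231 CPM in control GFP-high and GFP-low. Chgb alone gave 48.6 and 287 CPM of the HFD sums and 35.8 and 663 CPM of the control sums. Chga, Chgb, Neurod1, Gcg, Gip, Tph1 and Pyy each ran this way, some on few counts. Sct, Tac1 and Cck were lower under HFD in both fractions, and Neurog3 was higher in both. Of these 11 markers 10 were tested and 2, Cck and Tac1, fell under HFD. The part of these cells in the Reg4 values was not tested.

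Counted by at least 2-fold with at least 5 CPM in the higher library, the same 3 genes were lower under HFD in GFP-high and in GFP-low, where 1.52% (GFP-high) and 2.63% (GFP-low) of genes were lower by that rule. In GFP-high, Reg3b met the 5 CPM rule through the control library alone (2.25 CPM under HFD), and Reg3a did not meet it. The size of the diet ratio differed between the fractions by at least 2-fold for 3 of the 6 genes, against 3.84% of all genes. The log2 ratio in GFP-high minus that in GFP-low was -1.18 for Reg3b, -1.34 for Reg3a and 1.09 for Reg4. It was 0.93 for Pla2g2a, -0.08 for Reg1 and -0.05 for Reg3g. Without the added 0.5 CPM the counting interval ran from -2.22 to -0.67 for Reg3b, from -2.92 to -0.15 for Reg3a and from 0.73 to 1.48 for Reg4. With 2 CPM added the Reg3b difference shrank to -0.64. No test of these differences is possible with 1 library per group.

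**Figure D3:**
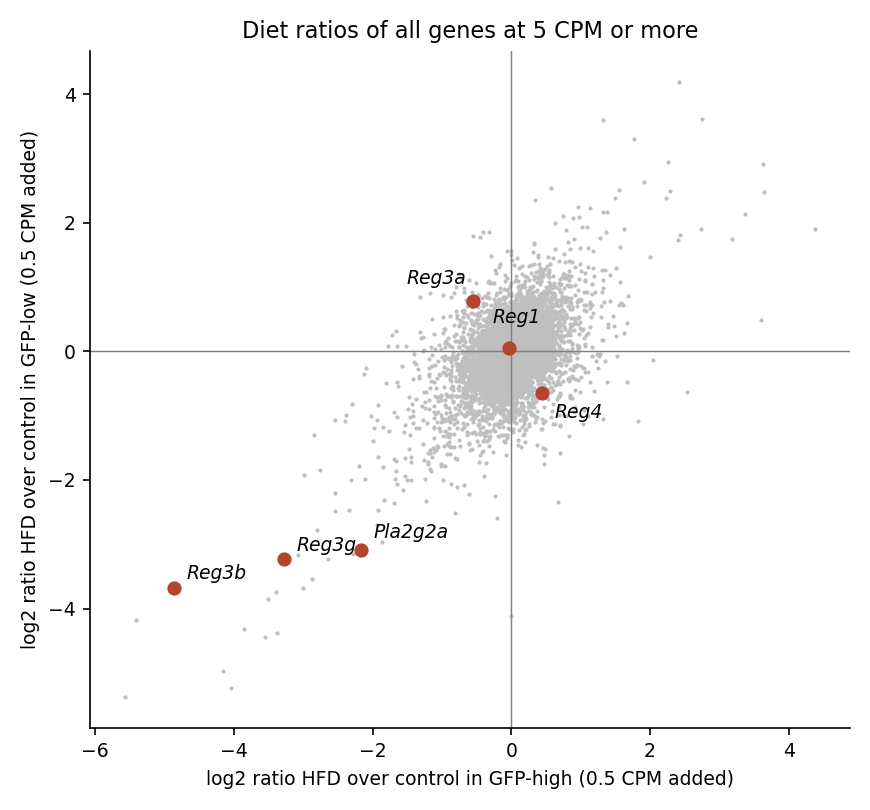
Log2 diet ratio in GFP-high (x axis) against that in GFP-low (y axis) for genes at 5 CPM or more in at least 1 library, with 0.5 CPM added and the 6 genes in red. Reg3b, Reg3g and Pla2g2a lie at the lower left, and Reg1, Reg3a and Reg4 lie within or at the edge of the main cloud.

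Between the fractions, all 6 genes fell in GFP-high stem cells relative to GFP-low progenitors in the test over both diets. In this comparison 46.3% of tested genes were called, 24.8% lower (2656) and 21.5% higher (2297). Scaling by library totals moves the median over all genes to 0.19 on the log2 scale, from 0.01, and gives 1931 lower and 3628 higher, and all 6 genes stayed called and lower with it. For Reg3a the fall was 12.3-fold (edgeR adjusted p = 1.97e-05, log2 -3.62 ± 0.37 SE) and for Reg1 11.9-fold (edgeR adjusted p = 1.63e-08, log2 -3.58 ± 0.13 SE). For Reg3b it was 7.02-fold (edgeR adjusted p = 1.32e-06, log2 -2.81 ± 0.20 SE) and for Reg3g 6.51-fold (edgeR adjusted p = 6.30e-08, log2 -2.70 ± 0.12 SE). Reg3a had only 8 (HFD) and 11 (control) counts in GFP-high, against 123 and 63 in GFP-low. It met the count filter through the GFP-low libraries alone, so the size of its fall rests on few GFP-high counts. With the filter of 100 counts Reg3a was not tested.

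Reg4 and Pla2g2a had the smaller differences between the fractions. Reg4 fell 2.84-fold (edgeR adjusted p = 0.000153, log2 -1.50 ± 0.21 SE). Pla2g2a was 1.81-fold lower (log2 -0.86 ± 0.21 SE, edgeR adjusted p = 0.00564), and DESeq2's Wald test did not call it (adjusted p = 0.145). Without diet as a term, the calls of Reg3b, Reg3g and Pla2g2a were lost (edgeR adjusted p = 0.250, 0.170 and 0.515).

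The gap between the fractions was also set out within each diet, without a test. Under HFD 4 of the 6 were at least 2-fold lower in GFP-high, where 9.0% of genes were, and under the control diet all 6 were, where 9.17% of genes were. Reg3a was under 5 CPM in GFP-high in each diet (1.20 and 1.997 CPM), and Reg3b was so under HFD (2.25 CPM). These met the 5 CPM rule through GFP-low alone, so they could be counted only as lower or not at all. Pla2g2a was 1.12-fold lower in GFP-high under HFD (exact interval of the ratio 0.554 to 1.45) and 2.13-fold lower under the control diet (0.383 to 0.571). Scaling by library totals turned its HFD log2 ratio to 0.05 and put its control one at -0.92, below 2-fold. Reg3b was 16.0-fold lower in GFP-high under HFD (9.43 to 29.2) and 5.87-fold lower under the control diet (5.29 to 6.52), whereas Reg3g was 6.94-fold lower under HFD and 6.35-fold lower under the control diet. Reg1 was 12.3-fold lower under HFD and 11.6-fold lower under the control diet.

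Levels were also compared between genes, per kilobase of the longest protein-coding GENCODE transcript. In control GFP-low cells Reg3b (595 CPM per kb) and Reg3g (588) led with overlapping intervals, followed by Reg1 (165), Reg4 (98.9), Pla2g2a (79.6) and Reg3a (17.3). In HFD GFP-low cells Reg1 led with 171 CPM per kb, ahead of Reg4 (62.9) and Reg3g (62.1), which overlapped, and of Reg3b (45.9), Reg3a (30.1) and Pla2g2a (8.76). In HFD GFP-high cells Reg4 led with 32.0 CPM per kb, ahead of Reg1 (13.9), and Reg3b (2.87) and Reg3a (1.45) were the lowest, with overlapping intervals. In control GFP-high cells Reg3b (101) and Reg3g (92.5) led, with overlapping intervals, and Reg3a (2.42) was last. The leading pair of the control libraries was thus not leading in either HFD library. The summed CPM of the 5 Reg genes was 55.6 in HFD GFP-high and 328 in HFD GFP-low, against 190 in control GFP-high and 1183 in control GFP-low.

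Genes of the STAT3 signalling route and its receptors fell in part under HFD. Of 11 tested genes of IL-22 and gp130 receptors and JAK-STAT3 signalling, 5 fell and none rose (median log2 -0.43, against 0.01 over all tested genes). Stat3, the transcription factor itself, had 219 counts in HFD GFP-high and 312 in HFD GFP-low, against 381 in control GFP-high and 480 in control GFP-low (log2 -0.92 ± 0.12 SE, edgeR adjusted p = 0.00125). Socs3, its feedback inhibitor, fell with log2 -1.33 ± 0.24 SE (edgeR adjusted p = 0.00732), and the shared receptor chain Il6st and the kinase Jak2 fell with -0.67 and -0.46. Il22ra1, the epithelial receptor of interleukin-22, was at log2 -0.43 ± 0.16 SE and was not called (edgeR adjusted p = 0.155). Il10rb, Jak1 and Tyk2 of the same list were not called either, at -0.13, -0.06 and -0.16. Ptpn11, a phosphatase of this route, was the highest of the list at 0.01. The part of this route in the Reg3b and Reg3g results was not tested.

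Genes known as IL-22 or STAT3 induced in epithelium were few in these cells, with 7 of 19 tested and 6 at 0 counts in every library. Of the 7, 5 fell and none rose (median log2 -1.33), Socs3 among them. Nos2, the inducible nitric oxide synthase, had 6 counts in HFD GFP-high and 2 in HFD GFP-low, against 364 in control GFP-high and 164 in control GFP-low (log2 -6.24 ± 0.26 SE, edgeR adjusted p = 1.94e-07). Duox2, an epithelial peroxide-producing oxidase, was at 18.1 and 24.4 CPM in HFD GFP-high and GFP-low, against 130 and 171 CPM in the controls (log2 -2.82 ± 0.12 SE, edgeR adjusted p = 1.94e-07). Its maturation factor Duoxa2 fell with -2.47 and the signalling adaptor Tifa with -1.28, while the cytokine gene Il18 was at 0.02. Lcn2, an iron-sequestering antibacterial protein that missed the count filter, had 1 and 0 counts in HFD GFP-high and GFP-low, against 25 and 13 in the controls. A link between these genes and the Reg and Pla2g2a results was not tested.

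Of the 12 tested Toll-like receptor and MyD88 genes, 1 fell, Tlr2, a receptor of bacterial lipopeptides (log2 -1.82 ± 0.36 SE, edgeR adjusted p = 0.0125). The list's median was -0.21. Myd88, the adaptor, was at log2 -0.00 ± 0.15 SE and the highest of the list. Of 7 tested phospholipase A2 genes other than Pla2g2a, Pla2g5 was the only call (median -0.26), and the highest was Pla2g12b at 0.40 ± 0.30 SE. Extl3, a proposed receptor of Reg proteins, was at -0.44 ± 0.13 SE (edgeR adjusted p = 0.0856).

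Other secreted antimicrobial proteins that were tested fell, where called, by smaller factors than Reg3b, Reg3g and Pla2g2a. Lcn2, also on this list, was not tested and had 1 and 0 counts in HFD GFP-high and GFP-low, against 25 and 13 in the controls. Of 11 tested, 8 fell and none rose (median log2 -0.74), between -1.87 for the pentraxin gene Mptx2 and -0.67 for the lysozyme gene Lyz1. Lypd8, an anti-flagellin protein of enterocytes, was at -0.17 ± 0.11 SE and not called, the highest of the list. Alpha-defensin genes are near-identical copies, so their reads may be shared.

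**Figure D4:**
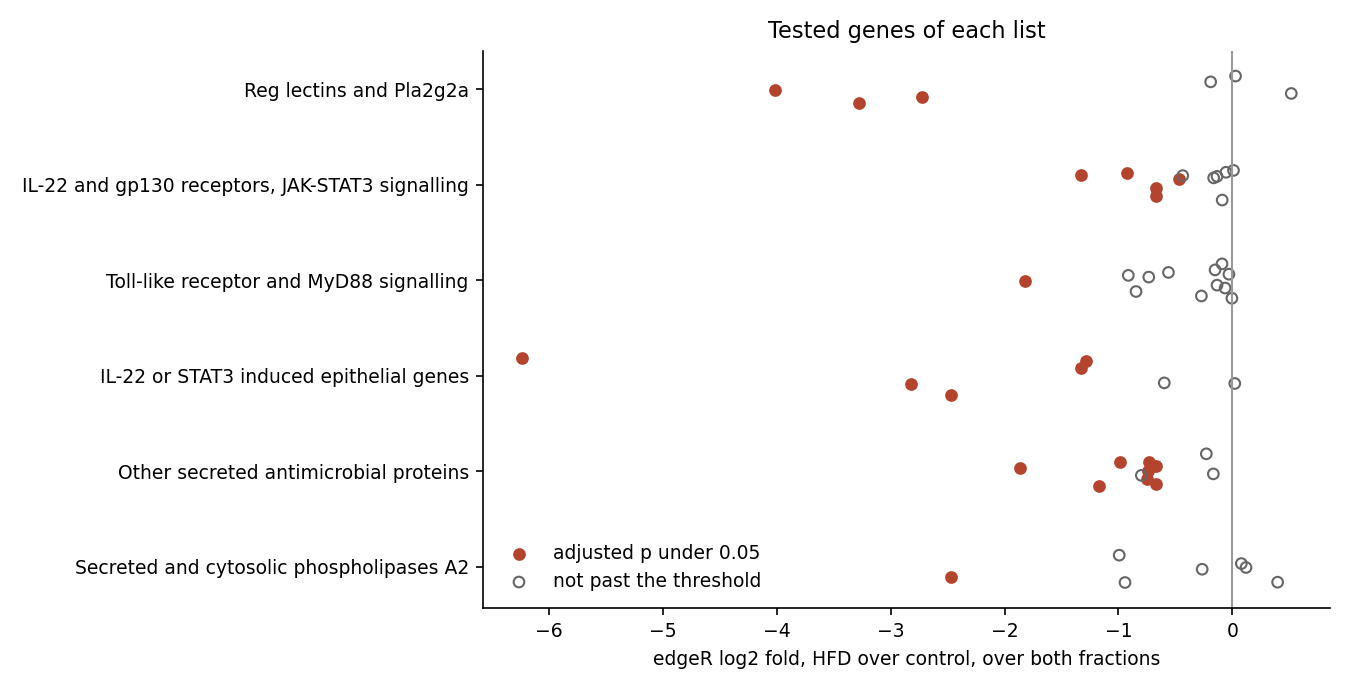
Fitted log2 fold of HFD over control for the tested genes of each list, filled where the edgeR adjusted p is under 0.05 and open otherwise. Reg3b, Reg3g and Pla2g2a lie at -4.01, -3.28 and -2.73, and the other lists reach beyond -2 only with Nos2, Duox2, Duoxa2 and Pla2g5.

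Markers of the cell types in the sort moved with diet too. Paneth cell markers summed to 472 and 1167 CPM in HFD GFP-high and GFP-low, against 795 and 2341 CPM in the controls, and 7 of 10 fell (median log2 -0.74), with none at 0. Lyz1, Ang4, Itln1 and the tested alpha-defensin genes are also on the list of secreted antimicrobial proteins, so the calls of these lists overlap. Goblet cell markers summed to 3188 and 17817 CPM under HFD, against 3599 and 40561 CPM in the controls, and 2 of 8 fell. Enterocyte markers summed to 797 and 6135 CPM under HFD, against 406 and 1960 CPM in the controls, and 7 of 9 rose. Of the 8 stem cell markers 2 fell under HFD, Tnfrsf19 and Sox9, and none of the 3 tested tuft cell markers was called. All markers of the Paneth, goblet and enterocyte lists fell in GFP-high relative to GFP-low, as did the 6 genes. So did all 10 tested enteroendocrine markers, 2 of the 3 tested tuft cell markers and the 2 tested leukocyte markers. Of all tested genes 24.8% were called lower. The part of these cell types in the Reg and Pla2g2a results was not tested.

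Markers of cells outside the epithelium were scarce. Of 13 leukocyte markers 6 had 0 counts in every library, among them Ptprc and Il22, the cytokine itself. The list summed to 27.1 and 53.1 CPM in HFD GFP-high and GFP-low, against 19.1 and 53.3 CPM in the controls. Of 10 pancreatic acinar markers, which name another tissue rich in Reg1, 5 had 0 counts in every library, and the list's sums were 41 and 36 counts in HFD GFP-high and GFP-low against 21 and 19 in the controls, nearly all from Cela1.

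Patterns over the 4 libraries were matched between genes by the distance between centred log2 profiles, among protein-coding genes at 10 CPM or more in at least 1 library (9407 ranked for Reg3b). Reg3b and Reg3g were each other's nearest gene (1.25 log2 units). The next for Reg3b were AA467197 (2.82), Rhoc, Barx2 and Apobec1, and for Reg3g AA467197 (1.77), Apobec1, Rhoc and B3galt5. Pla2g2a lay nearest to Duox2 (0.55) and Duoxa2 (0.62), then to the adhesion receptor gene Celsr1 (0.72), the Paneth cell protease gene Mmp7 (0.89) and the interferon-inducible GTPase gene Irgm2 (0.90).

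The uncalled Reg genes had other neighbours. Reg3a lay nearest to Apoa1 (0.07) and Fabp6 (0.10), an apolipoprotein and the ileal bile acid carrier of enterocytes, then to Slc25a45, Hsd17b2 and Emp1. Reg1 lay nearest to Osgin1 (0.10) and Maf (0.21), then to Chp2, Il18 and Lgals3. Reg4 lay nearest to C1galt1c1 (0.16), a chaperone of mucin-type glycosylation, then to Rimbp2, Rassf6, Leng9 and Pqlc3. Each profile has 4 points, so such distances are a description of these libraries.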

How the data were processed

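Per the submitters' processing notes, reads were handled with cutadapt, TopHat version 1.4.1 and HTSeq on GRCm38/mm10. The deposited values are raw counts of reads per Ensembl gene. The libraries are strand-specific and poly(A)-selected, per the labels' protocols. The annotation release is not given in the sources used here. Of 38124 gene IDs, 36345 matched a symbol. Positions and transcript lengths came from GENCODE M21, and promoter sequences from RefSeq (GRCm38.p6).

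Library sizes were TMM-scaled and tested with edgeR version 4.0.16 (R version 4.3.3), by its quasi-likelihood test with p-values adjusted by Benjamini-Hochberg over 10694 genes. The common dispersion was 0.00694. SEs came from the fold change and F statistic. DESeq2 version 1.42.0, other scalings, other filters and fits without the other factor were alternatives, and robust empirical Bayes was added after seeing the data. Ratios of 2 libraries carry exact 95% intervals (Clopper-Pearson, conditional on the 2 counts). A count of 0 allows up to 3 counts, 0.450 to 0.678 TMM-scaled CPM. In counts simulated for the diet comparison on 10694 genes, edgeR recovered 89% of 2-fold and 100% of 4-fold changes, and 5.97% of calls were false. The simulated counts had the common dispersion for every gene, no diet-by-fraction difference and no difference between pools of mice. These rates therefore do not carry over to the diet calls in the real libraries. Genes were named if they were members, list members, or among the 5 nearest in pattern. The members and lists were chosen with earlier results of these data known, and the lists are not independent evidence. Some listed genes are not reported by name here.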

Additional observations from a re-analysis of the deposited data

Results flagged for a closer look

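Reg4 went opposite ways with diet in the fractions. Its log2 ratio of HFD over control came to 0.44 in the GFP-high cells and to -0.65 in the GFP-low cells, and neither counting interval reached 0. The difference between the fractions was not tested, since each group has 1 library.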

How the results depend on the processing

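The direction of Reg3b, Reg3g and Pla2g2a under HFD held in all 8 alternatives of the fit, with log2 values of -4.38 to -3.85, -3.30 to -3.27 and -2.81 to -2.72, and their calls were lost only without fraction as a term. The number of genes called for diet was 563, against 189 with DESeq2's Wald test, 1133 with no filter on low counts and 0 without fraction as a term (154 at an unadjusted p under 0.05). For fraction it was 4953, against 2390 with DESeq2's Wald test and 2794 without diet as a term. Genes whose diet ratio differed at least 2-fold between the fractions numbered 410, against 231 with 2 CPM added. By construction, a fit without the other factor counts the fraction or diet difference as spread; the cause of the other shifts was not tested. Reg3a was not tested with a filter of 100 counts. No paired analysis was possible because the labels give no replicate numbers to pair by, beyond the fits reported, which already hold the other factor as a term. Depth limits Reg3a and Reg3b in HFD GFP-high, at 8 and 15 counts.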
